A study of Mus musculus with 12 samples.

Results

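Protein kinase C (PKC) and protein kinase D (PKD) are serine/threonine kinase families that relay signals carried by the membrane lipid diacylglycerol. The phorbol ester PMA (phorbol 12-myristate 13-acetate) takes the place of diacylglycerol and is the classical activator of these kinases. The 10 genes described here include Prkca and Prkcb of the conventional PKC class and Prkci and Prkcz of the atypical class. The others are Prkcd, Prkce and Prkch of the nPKC class, which needs diacylglycerol but not calcium, and the PKD genes Prkd1, Prkd2 and Prkd3. They were chosen by name, as the phorbol ester receptors and relatives among 37310 genes of a count table, and all 10 were found by their Ensembl identifiers. Of the 10, 9 passed a filter on low counts that kept 16630 genes, and Prkcb, with 2 to 11 counts per library, did not.

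Conventional isoforms need calcium and diacylglycerol, nPKC isoforms need diacylglycerol alone, and atypical isoforms respond to neither. The first 2 classes bind phorbol esters through C1 domains, which the atypical class holds in a form that does not bind them. PKD enzymes also have C1 domains that bind diacylglycerol, and they are in addition phosphorylated and switched on by nPKC isoforms. In fibroblasts, PMA acting through these kinases is a standard way to switch on the Ras and MAP kinase cascade and, within minutes, the transcription of immediate-early genes.

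RNA was measured in 12 libraries of mouse lines derived from embryonic fibroblasts (MEF), in 4 groups of 3. The R line is labelled a knockout of HP1γ, a heterochromatin protein encoded by Cbx3, and the HPg line was given HP1γ back. The groups are R cells with 100 nM PMA for 30 min, untreated R cells, HPg cells with the same PMA treatment, and untreated HPg cells. There is 1 line for each genotype, so line and genotype cannot be told apart, and the labels give neither the promoter of the added HP1γ nor the solvent given to untreated cells. In bulk RNA such as this, fewer cells of a type and less RNA per cell cannot be told apart.

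Libraries held 111458145 to 159929347 counts, and 3 abundant noncoding RNAs (Rpph1, Rn7sk and Rmrp) took 8.59 to 19.25% of them. Untreated HPg library 2 had the fewest genes with a count, 17822, against 19759 to 20656 in the other libraries. Cbx3 counts do not check the labels: Cbx3 averaged 31.8 ± 4.37 CPM in R cells with PMA and 38.6 ± 4.66 CPM in HPg cells with PMA, and 36.5 ± 2.198 CPM in untreated R cells and 38.7 ± 2.45 CPM in untreated HPg cells (SD, n = 3 each). Of 12 fibroblast markers, 11 averaged at least 1 CPM in every group, among them Dcn at only 3.98 to 7.01 CPM, and Thy1 was near 0. So did 2 or 3 of 5 endothelial markers per group, 1 or 2 of 5 muscle markers and at most 1 of each other list. Fibroblast markers summed to 9865 to 16726 CPM per library. They were uneven: Col1a2 averaged 7.62 to 12.3 CPM over the groups, against 3779 to 5321 CPM for Col1a1. The summed levels of the marker lists of epithelial, endothelial, blood, neural and platelet cells were at most 10.5 CPM in any library. Muscle markers summed to 21.2 to 79.2 CPM. Of these markers the endothelial Vwf (2.58 ± 0.676 CPM in R cells and 0.658 ± 0.218 CPM in HPg cells) and the muscle gene Des (1.14 ± 0.0971 CPM in R cells and 0.338 ± 0.108 CPM in HPg cells) were higher in R cells with PMA, and the neural Syn1 rose with PMA in R cells, to 1.06 ± 0.104 CPM, against 0.429 ± 0.0647 CPM in untreated R cells (SD, n = 3). The summed lists overlapped between those groups for endothelium and muscle, and their part in the results was not tested.

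The promoters of 3 members are shown for their sequence context. Prkci and Prkcz are the atypical pair and stand first and next to last in the level order below. Prkd3 holds the only match, among the member windows searched, to a binding motif of EGR factors, which are themselves products of immediate-early genes. Prkce and Prkch had no window and were not searched. Each sequence is the 250 bases upstream of an annotated start, from RefSeq on GRCm38.p6, written on the strand of the gene. Capitals mark matches on either strand to the GC box (GGGCGG) and, in Prkd3, to the EGR motif (GCGGGGGCG; GCGTGGGCG was searched too), which there overlaps a GC box. The windows are chr3:30995521-30995770 on the plus strand for Prkci, chr4:155361429-155361678 on the minus strand for Prkcz and chr17:79020817-79021066 on the minus strand for Prkd3.
Prkci: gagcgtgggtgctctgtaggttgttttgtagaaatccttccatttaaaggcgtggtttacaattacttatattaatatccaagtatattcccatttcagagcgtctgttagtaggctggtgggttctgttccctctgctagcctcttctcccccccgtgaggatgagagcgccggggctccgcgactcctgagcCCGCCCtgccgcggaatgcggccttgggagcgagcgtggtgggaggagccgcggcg
Prkcz: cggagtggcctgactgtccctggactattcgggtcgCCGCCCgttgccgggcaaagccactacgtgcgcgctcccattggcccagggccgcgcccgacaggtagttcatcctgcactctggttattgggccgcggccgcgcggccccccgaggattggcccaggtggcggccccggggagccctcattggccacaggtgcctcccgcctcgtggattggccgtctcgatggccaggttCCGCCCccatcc
Prkd3: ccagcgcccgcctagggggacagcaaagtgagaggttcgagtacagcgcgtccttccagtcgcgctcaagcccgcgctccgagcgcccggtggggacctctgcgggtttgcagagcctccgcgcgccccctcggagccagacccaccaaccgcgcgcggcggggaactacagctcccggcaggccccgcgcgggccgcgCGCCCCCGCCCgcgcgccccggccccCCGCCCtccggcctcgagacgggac

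RefSeq windows were matched for 8 of the 10 members, 13 windows in all, since some genes have several starts. GC boxes stood in 10 of the 13 windows, against 32.7% of 32841 promoter windows of the same length. The motif TGACTCA, which AP-1 factors such as Fos bind, was in 0 of the 13 windows and in 4.46% of all windows. The motif TGACGTCA, bound by CREB, was in 0 of 13 and in 1.55% of all, and the CArG box, bound by serum response factor, was in 0 of 13 and in 1.47% of all. The EGR motif was in 1 of the 13, the printed window of Prkd3, and in 3.06% of all windows. The printed Prkci, Prkcz and Prkd3 windows held 17, 25 and 38 CpG dinucleotides, against a median of 6 over all windows. The other Prkcz windows held 7 and 10. The other Prkd3 window held 2, with 0 GC boxes and 0 EGR matches, and the second Prkcd window held 1. The most CpG dinucleotides among the 13 windows, 39, were in that of Prkca.

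Each class had at least 1 abundant member, and 3 genes were present as traces. Levels per kilobase of exon (RPKM, from CPM with TMM scaling) put Prkci, Prkca, Prkd1, Prkcd, Prkce and Prkd3 between 9.21 and 35.2 RPKM on average over the 12 libraries, with Prkd2 below them at 1.54 RPKM and Prkch, Prkcz and Prkcb at 0.0707, 0.0154 and 0.00803 RPKM. The atypical class was almost wholly Prkci and the conventional class almost wholly Prkca. By class, atypical genes held 26.9 to 36.8% of the summed RPKM of the 10 genes in a library, PKD genes 24.7 to 31.7%, conventional genes 14.0 to 24.5% and nPKC genes 19.2 to 23.9%.

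**Figure D1:**
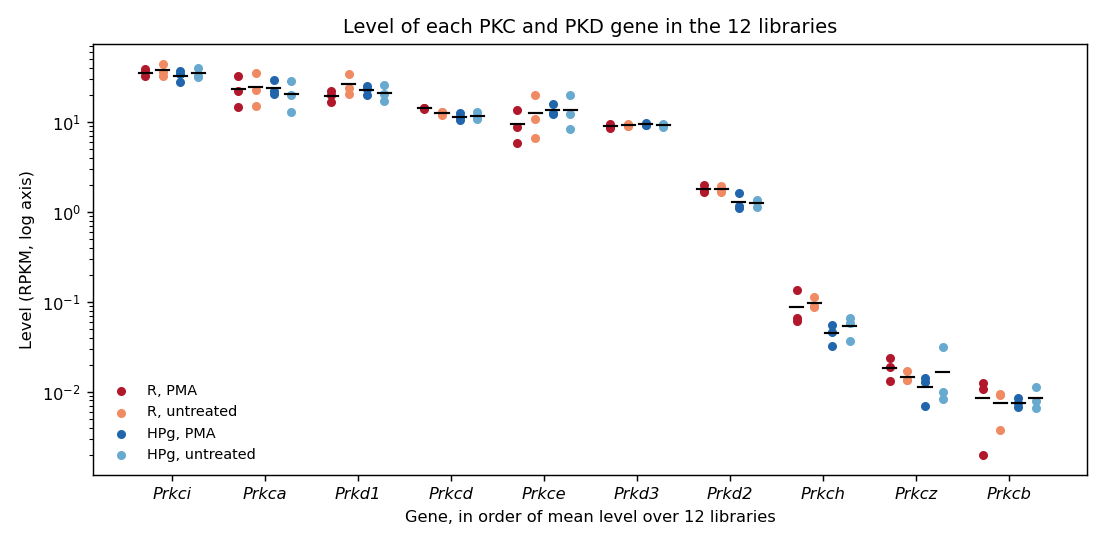
Level of the 10 PKC and PKD genes in each of 12 libraries, as RPKM on a log axis, with genes in order of their mean over all libraries. Points are libraries and black bars are group means (n = 3); 6 genes lie between 5.80 and 44.7 RPKM in every library, and Prkch, Prkcz and Prkcb lie at or below 0.137 RPKM.

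Not all neighbours in this order were apart. Prkci exceeded Prkca in each of the 12 libraries, but their ranges overlapped in untreated R cells and in HPg cells with PMA. Prkca and Prkd1 overlapped in all 4 groups, and Prkcd and Prkce overlapped in all but R cells with PMA. Prkce and Prkd3 overlapped in all but HPg cells with PMA, and the traces of Prkcz and Prkcb overlapped in both HPg groups. Prkd1 stood above Prkcd, Prkd3 above Prkd2, Prkd2 above Prkch, and Prkch above Prkcz without overlap in each of the 4 groups. With the longest transcript in place of all exons as gene length, Prkcd, Prkd1, Prkd3 and Prkce changed places while 6 genes kept their rank.

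Among the conventional genes, Prkca, a widely expressed isoform that is rapidly drawn to the membrane by phorbol esters, had 132, 290 and 201 CPM in R cells with PMA and 137, 317 and 205 CPM in untreated R cells (libraries 1, 2 and 3). In HPg cells it had 186, 263 and 198 CPM with PMA and 117, 259 and 178 CPM without. Library 2 was the highest and library 1 the lowest in each group, and all 4 groups overlapped. Prkcb, an isoform best known from B cells and brain, had 11, 2 and 9 counts in R cells with PMA, 8, 4 and 10 in untreated R cells, 8, 9 and 8 in HPg cells with PMA, and 11, 6 and 8 in untreated HPg cells, too few for a test.

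Among the nPKC genes, Prkcd, a ubiquitous isoform known for roles in cell death and DNA damage signalling, was the steadiest. It had 77.3, 80.2 and 79.8 CPM in R cells with PMA and 71.0, 70.9 and 65.9 CPM in untreated R cells. In HPg cells Prkcd had 58.5, 69.7 and 62.2 CPM with PMA and 59.9, 72.5 and 60.9 CPM without. The 3 R libraries with PMA lay above all 9 others.

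Prkce, an isoform known for oncogenic activity in fibroblasts and for binding actin, had 42.1, 99.7 and 63.8 CPM in R cells with PMA and 48.7, 145 and 77.4 CPM in untreated R cells. In HPg cells Prkce had 90.1, 114 and 91.2 CPM with PMA and 60.6, 144 and 90.0 CPM without. The spread within groups was wide and the groups overlapped. Prkch, an isoform typical of epithelia and of some immune cells, had 118, 66 and 50 counts in R cells with PMA, 95, 93 and 94 in untreated R cells, 64, 55 and 30 in HPg cells with PMA, and 55, 33 and 65 in untreated HPg cells.

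Among the atypical genes, Prkci, which acts with Par3 and Par6 in cell polarity, had 200, 213 and 179 CPM in R cells with PMA and 200, 248 and 179 CPM in untreated R cells. In HPg cells Prkci had 188, 204 and 156 CPM with PMA and 182, 223 and 175 CPM without, so that all 4 groups overlapped. Prkcz, the other polarity isoform, had 7 to 24 counts in each library.

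Of the PKD genes, Prkd1 had 60.3, 80.3 and 72.7 CPM in R cells with PMA and 75.0, 125 and 87.0 CPM in untreated R cells. In HPg cells Prkd1 had 91.5, 85.1 and 72.7 CPM with PMA and 62.9, 94.9 and 74.3 CPM without. All groups overlapped. Prkd2, the main PKD of lymphocytes and endothelium, had 10.2, 8.82 and 8.38 CPM in R cells with PMA and 8.82, 8.48 and 9.73 CPM in untreated R cells. In HPg cells it had 5.57, 8.13 and 5.87 CPM with PMA and 6.84, 5.76 and 6.63 CPM without, so each R group lay above the HPg group of the same treatment without overlap. Prkd3 had the narrowest range of all members, 95.6 to 108 CPM over the 12 libraries, a ratio of 1.13 between the highest and the lowest.

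With PMA for 30 min, 0 of the 9 tested members passed the test, a count near the small shares of all genes that passed. The wider intervals, such as those of Prkca, leave room for a change in either direction. The immediate-early response in the same libraries was large. In R cells 0 of the 9 tested members passed an adjusted p of 0.05 for PMA against untreated cells (edgeR quasi-likelihood F-test, Benjamini-Hochberg over all genes), against 4.44% of all genes, and 0 reached an unadjusted p of 0.05, against 15.9% of all genes. In HPg cells 0 of 9 passed, against 3.45% of all genes, and again 0 reached an unadjusted p of 0.05, against 17.4% of all genes. With the replicate number as a block, 2 members in R cells and 1 in HPg cells had an unadjusted p under 0.05, and 0 passed after adjustment. DESeq2 without the block called 0 of the members in either line. With the block it called Prkd1 in R cells (log2 fold change -0.40, adjusted p = 0.0313). The members' median log2 fold change was -0.08 in R cells and 0.00 in HPg cells, beside -0.02 for all genes in each line. Prkd3, the most precise member, changed by -0.03 (95% interval -0.23 to 0.17) in R cells and by 0.03 (-0.17 to 0.24) in HPg cells. For Prkca the intervals were wider, with -0.08 (-0.85 to 0.69) in R cells and 0.22 (-0.55 to 0.99) in HPg cells. With the block and gene span among the offsets, the Prkca value in R cells had the opposite sign and passed (0.25, adjusted p = 0.0351).

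**Figure D2:**
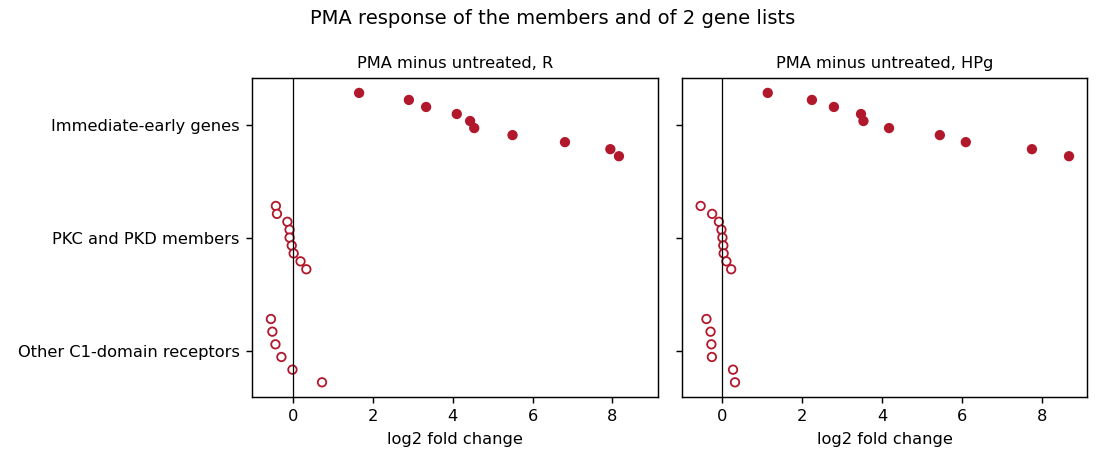
Log2 fold change of PMA over untreated cells, in R cells (left) and HPg cells (right), for 10 immediate-early genes, the 9 tested PKC and PKD members and 6 other genes of C1-domain proteins. Each point is a gene and filled points passed an adjusted p of 0.05; the members lie between -0.54 and 0.34, and the immediate-early genes between 1.14 and 8.68.

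All 10 genes of a list of immediate-early genes rose with PMA in both lines, with a median log2 fold change of 4.49 in R cells and 3.85 in HPg cells. Fosl1, a partner of Jun in AP-1, rose to 74.4 ± 3.67 CPM in R cells with PMA, against 3.44 ± 0.0720 CPM in untreated R cells (log2 fold change 4.44, adjusted p = 4.1e-10), and to 48.0 ± 0.795 CPM in HPg cells with PMA, against 4.33 ± 0.385 CPM in untreated HPg cells (3.47, adjusted p = 4.9e-09; SD, n = 3 each, edgeR). Egr3, Ier3 and Ier2 rose by 7.95, 3.33 and 4.10 in R cells and by 8.68, 2.79 and 3.53 in HPg cells (log2, edgeR). The smallest rise of the 10, that of Dusp1, a MAP kinase phosphatase, was 1.66 in R cells and 1.14 in HPg cells.

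Prkd1 (-0.43) and Prkce (-0.40) had the most negative PMA values in R cells. For Prkd1 each PMA library was below the untreated library of the same replicate number (log2 fold change -0.43 ± 0.20 SE, adjusted p = 0.327, edgeR). With the replicate number as a block the value was -0.41 ± 0.13 SE and the adjusted p 0.0577. This call depended on the setting: it was made in 10 of 24 fits with the block, among them library totals (0.0372), upper-quartile factors (0.0287), only the groups compared (0.000855), offsets for GC content and length (0.0463), chromosome medians removed (0.0351) and DESeq2 (0.0313), and in 0 of 26 fits without the block. With the block, offsets that also took in gene span gave -0.18 (adjusted p = 0.209). Without untreated R library 2 and without the block the value was -0.18 (adjusted p = 0.828). In HPg cells the Prkd1 value was 0.10 ± 0.20 SE (adjusted p = 0.865). The difference of the 2 responses was -0.53 ± 0.28 SE (adjusted p = 1.00), and 0 of 9 members and 0 of 16630 genes (0%) passed for such a difference, where DESeq2 called 1 gene and 328 genes had an unadjusted p under 0.05. Of the 9 members, Prkca alone went one way with PMA in all 3 pairs of one line and the other way in all 3 of the other line, as did 2.18% of all genes. Prkd1 alone was on opposite sides between the lines in all 3 pairs with PMA and all 3 without, as were 3.1% of all genes. Its library 3 values with PMA were nearly equal, 72.66 CPM in R cells and 72.69 CPM in HPg cells.

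Between the lines 0 members passed the test without the replicate number as a block. With the block 3 members passed in the comparison with PMA, as given below. The share of members whose groups did not overlap was near that of all genes. Without PMA 0 of 9 members passed the test for R against HPg cells, against 1.32% of all genes, and 2 members, Prkd2 and Prkch, had groups that did not overlap, against 18.5% of all genes. With PMA 0 of 9 passed, against 2.47% of all genes, and 3 members, those 2 and Prkcd, did not overlap, against 25% of all genes. At an unadjusted p under 0.05 the counts were 2 of 9 members without PMA and 3 of 9 with PMA, beside 14.3% and 18.4% of all genes. DESeq2 without the block called 0 members in either comparison. With the block it called Prkcd, Prkce, Prkch and Prkd2 with PMA (adjusted p = 0.00702, 0.00179, 0.0459 and 0.0195). Without PMA, DESeq2 with the block called Prkd2 (adjusted p = 0.0233). The members' median log2 fold change was 0.11 both with and without PMA, beside 0.01 for all genes, and 5 of 9 values were above 0 with PMA and 6 of 9 without.

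Prkd2 averaged 9.13 ± 0.943 CPM in R cells with PMA and 6.52 ± 1.399 CPM in HPg cells with PMA (log2 fold change 0.49 ± 0.17 SE, adjusted p = 0.149, edgeR). Without PMA it averaged 9.01 ± 0.649 CPM in R cells and 6.41 ± 0.571 CPM in HPg cells (0.49 ± 0.17 SE, adjusted p = 0.195; SD, n = 3 each, edgeR). The size of the difference was thus nearly equal with and without PMA in this fit. With the replicate number as a block and offsets for GC content and length, it was 0.33 with PMA and 0.52 without. The Prkch log2 fold change, R over HPg, was 0.97 ± 0.38 SE with PMA (adjusted p = 0.201) and 0.86 ± 0.38 SE without (adjusted p = 0.326), at levels under 1.03 CPM in all 12 libraries.

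**Figure D3:**
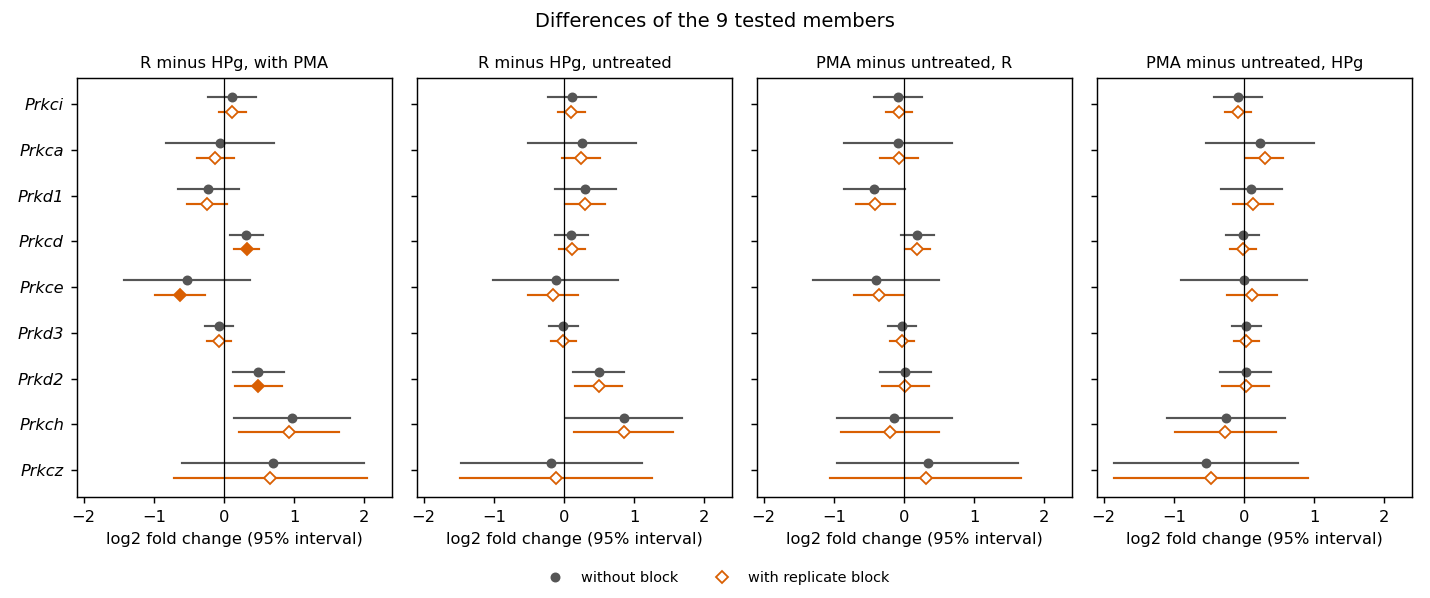
Log2 fold changes with 95% intervals for the 9 tested members in 4 comparisons, from the fit without (grey circles) and with (orange diamonds) the replicate number as a block. Filled diamonds passed an adjusted p of 0.05, which were Prkcd, Prkce and Prkd2 for R against HPg cells with PMA; no grey circle passed it.

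Libraries with the same replicate number deviated together, and taking that number into the fit as a replicate block called 3 members for R against HPg cells with PMA, where 18.6% of all genes were called with the block. Prkcd was higher in R cells (log2 fold change 0.32 ± 0.09 SE, adjusted p = 0.0197) and so was Prkd2 (0.49 ± 0.16 SE, adjusted p = 0.0447), while Prkce was lower (-0.63 ± 0.17 SE, adjusted p = 0.0196; edgeR, n = 3 each). Each of these differences had the same sign in all 3 pairs of a replicate number, as did 53.9% of all genes in that comparison. With the block, 0 members were called for R against HPg cells without PMA (12.5% of all genes called), for PMA in R cells (13.4%) or for PMA in HPg cells (14.8%). The nearest was Prkd2 without PMA, at 0.49 ± 0.16 SE and an adjusted p of 0.0549.

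These 3 calls were not equally steady when each library was left out in turn with the block. Prkce was called in 9 of 12 such fits, and was lost without R with PMA library 1 (adjusted p = 0.122) or 3 (0.0510) and without HPg with PMA library 1, where its value was -0.35 (0.0608). Prkcd was called in 8 of 12, and was lost without R with PMA library 1 (0.0770) or 3 (0.0899) or HPg with PMA library 1 (0.0622) or 3 (0.0747). Prkd2 was called in 4 of 12, lost without R with PMA library 1 (0.215), 2 (0.0791) or 3 (0.0764), HPg with PMA library 1 (0.206) or 3 (0.191), untreated R library 1 (0.0613) or 3 (0.0616), or untreated HPg library 3 (0.0670). The signs of the 3 values were the same in all 24 fits with the block. Offsets with the block ended the Prkd2 call, with 0.33 (adjusted p = 0.121) for GC content and length and 0.32 (adjusted p = 0.119) with gene span added, while Prkcd kept its call under both (0.26, adjusted p = 0.0245 and 0.0233), as did Prkce (adjusted p = 0.0138 and 0.00557).

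Whole chromosomes differed between the lines in the direction of some members. The 517 tested genes of chromosome 14, where Prkcd lies, had a median log2 fold change of 0.27 for R against HPg cells with PMA and of 0.31 without, beside 0.01 for all genes in each. With chromosome medians removed and the block kept, the Prkcd value with PMA was 0.05 (adjusted p = 0.748), that of Prkd2 was 0.33 (0.165) and that of Prkce was -0.60 (0.0357). The 1153 genes of chromosome 7, with Prkd2, had a median of 0.17 with PMA and 0.08 without. The 553 genes of chromosome 12, with Prkch and Prkd1, had 0.17 with PMA and 0.22 without. With PMA, Prkd1 (-0.23), Prkca (-0.05, chromosome 11 median 0.09) and Prkcz (0.70, chromosome 4 median -0.11) had the sign opposite to their chromosome median. The other tested members had the same sign as theirs.

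Prkca and Prkce varied with the replicate number. In each of the 4 groups both genes were highest in library 2, next in library 3 and lowest in library 1, an order held by 4.47% of all tested genes. The ratio of library 2 to library 1 was 1.41 to 2.31 for Prkca and 1.27 to 2.98 for Prkce over the groups, lowest in HPg cells with PMA for both. Prkci was highest in library 2 in all 4 groups, as were 15.4% of genes, but by no more than 1.24 times over library 1. For Prkd1 the ratio was 0.93 to 1.66, and for Prkd3 0.92 to 1.06.

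**Figure D4:**
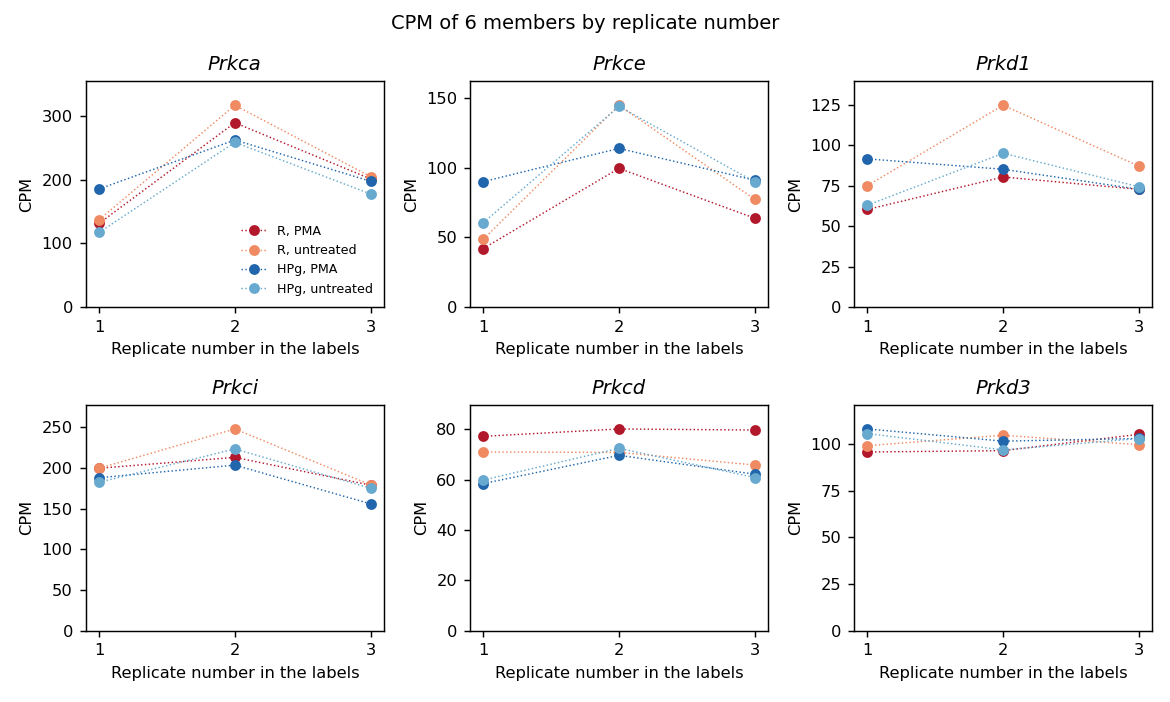
CPM of 6 members (y axes from 0) against the replicate number in the labels, with dotted lines joining the 3 libraries of each group. Prkca and Prkce peak in library 2 of every group, and Prkd3 stays between 95.6 and 108 CPM.

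Prkce and Prkca have the longest spans of the 10 genes, 490.1 and 410.5 kb. Prkcb, which was not tested, spans 345.7 kb, Prkd1 307.9 kb and Prkch 193.4 kb, against 30.9 kb for Prkcd and 27.6 kb for Prkd2. Prkch and Prkcb were highest in library 2 in 0 of 4 groups. The ratio of library 2 to library 1 was 0.48 to 0.84 for Prkch. Prkd1 and the short Prkcd each held the order 2, 3, 1 in 3 of 4 groups. The ratio of library 2 to library 1 was 1.00 to 1.21 for Prkcd. The 811 tested genes that span over 200 kb moved in the same direction as Prkca in 4 libraries. Their median log2 deviation from the mean over the 12 libraries was 0.48 in untreated R library 2 and 0.37 in untreated HPg library 2. It was -0.37 in untreated HPg library 1 and -0.36 in R library 1 with PMA. The order 2, 3, 1 was held in all 4 groups by 19.1% of these long genes, against 0.916% of the 7535 genes spanning under 20 kb. The Prkca deviations in the same 4 libraries were 0.68, 0.39, -0.75 and -0.59. The part of gene length in the members' values was not tested beyond the offsets, under which Prkce with PMA was -0.54 with the block (adjusted p = 0.00557).

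**Figure D5:**
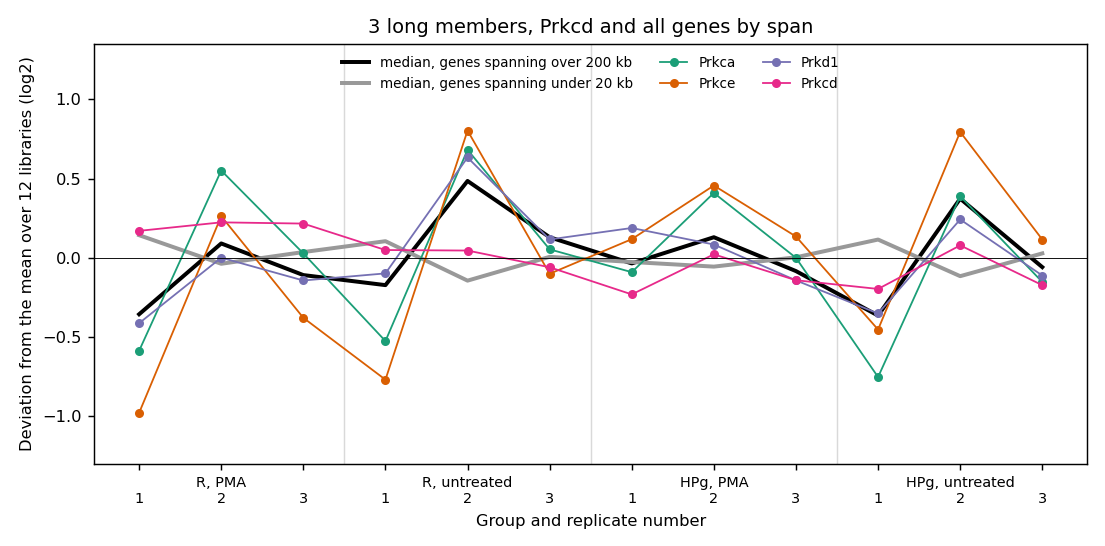
Log2 deviation of each library from the mean over the 12 libraries for Prkca, Prkce, Prkd1 and Prkcd (points), beside the median deviation of the 811 genes spanning over 200 kb (black) and of the 7535 spanning under 20 kb (grey). Prkca, Prkce and Prkd1, the 3 tested members spanning over 200 kb, lie above 0, as the black line does, in untreated library 2 of each line. Prkcd stays between -0.23 and 0.23.

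Across the 12 libraries the 3 tested members spanning over 200 kb went together. The Pearson r of log2 CPM was 0.87 for Prkca and Prkce, 0.81 for Prkce and Prkd1 and 0.79 for Prkca and Prkd1. Prkch, which spans 193.4 kb, had an r of -0.60 with Prkce, -0.35 with Prkca and -0.14 with Prkd1. Prkch and Prkd2 had an r of 0.79. These are descriptions over libraries that share lines, treatments and replicate numbers. For the 3 members called with the block, chosen after their values were seen, the genes of the most similar pattern were Magi1 (0.99), Acvr1 (0.99) and Ncoa2 (0.99) for Prkce, Zswim8, Dlg4 and Phldb1 (each 0.94) for Prkcd, and Slc25a20 (0.94), Mmp9 (0.94) and Serpinb1a (0.93) for Prkd2. The 3 genes nearest to Prkce span 608.5, 178.5 and 235 kb.

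Among proteins that make or remove diacylglycerol, 0 of 11 tested phospholipases C and 0 of 7 diacylglycerol kinases passed the test without the block in any of the 4 pairwise comparisons. Of the phospholipases, the lowest unadjusted p belonged to Plce1 for R against HPg cells without PMA (0.49, adjusted p = 0.114) and for PMA in R cells (-0.24, adjusted p = 0.438), to Plcb3 for the lines with PMA (0.33, adjusted p = 0.132) and to Plcg1 for PMA in HPg cells (-0.28, adjusted p = 0.245; edgeR, log2). With the block 3 of 11 phospholipases were higher in R cells without PMA (Plce1, Plcb1 and Plcb4), where 12.5% of all genes were called, and with PMA 3 were higher and Plch2 lower, where 18.6% were called. Of the kinases, Dgke, which favours arachidonoyl diacylglycerol, was nearest with PMA (-0.65, adjusted p = 0.0608) and Dgkz without (-0.34, adjusted p = 0.289), both lower in R cells with the block (adjusted p = 0.00457 and 0.0376). Dgka was also lower with the block, with PMA (-0.44, adjusted p = 0.0119) and without (-0.45, adjusted p = 0.0150). Dgkq had the lowest p for PMA, with -0.28 (adjusted p = 0.371) in R cells and -0.31 (adjusted p = 0.291; with the block 0.0498) in HPg cells.

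Of 12 other C1-domain receptors 6 were tested, and Prkcq and Rasgrp1 had at most 6 counts in a library. Without the block 0 of the 6 passed in any of the 4 pairwise comparisons. For R against HPg cells the lowest p belonged to Unc13a with PMA (0.77, adjusted p = 0.0688) and Unc13b without (0.77, adjusted p = 0.139), and for PMA to Unc13a in both lines, with 0.73 (adjusted p = 0.0719) in R cells and 0.27 (adjusted p = 0.570) in HPg cells (edgeR, log2). With the block Rasgrp2, Chn1 and Unc13b were higher in R cells without PMA (adjusted p = 0.0168, 0.000464 and 0.0199). With PMA and the block, Rasgrp2, Chn1 and Unc13a were higher (adjusted p = 0.00526, 0.00185 and 0.0131) and Unc13c lower (adjusted p = 0.00411), and Unc13a rose with PMA in R cells (adjusted p = 0.0238). Of 2 PKN kinases, which are related to PKC, 0 passed without the block, and with it Pkn2 was higher (0.34, adjusted p = 0.0242) and Pkn3 lower (-0.46, adjusted p = 0.0409) after PMA in HPg cells. Pkn2 had the lower p for PMA in R cells (0.11, adjusted p = 0.737) and in HPg cells (0.34, adjusted p = 0.116), and for the lines with PMA (-0.08, adjusted p = 0.753) and without (0.15, adjusted p = 0.586; edgeR).

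Of 13 genes for PKC maturation and turnover, Mtor, the kinase of the complex that phosphorylates PKC tails, was lower in R cells without PMA. It averaged 123 ± 9.40 CPM in R cells and 176 ± 11.6 CPM in HPg cells (log2 fold change -0.52, adjusted p = 0.0448, edgeR; SD, n = 3 each). With PMA, Mtor averaged 109 ± 10.4 CPM in R cells and 148 ± 4.29 CPM in HPg cells (-0.43, adjusted p = 0.0624; with the block 0.00375). The call without PMA was held in 7 of 26 fits without the block and 23 of 24 with it. For PMA itself 0 of 13 passed, with the lowest p for Mapkap1 in R cells (-0.34, adjusted p = 0.348) and for Hsp90aa1 in HPg cells (0.49, adjusted p = 0.232), both of which passed with the block (adjusted p = 0.0481 and 0.0394). With the block Mapkap1 and Phlpp2 were also lower in R cells with PMA, and Rictor was higher in R cells without PMA. Of 16 scaffolds and atypical PKC partners 0 passed in any comparison without the block. The lowest p belonged to Wwc1 for PMA in R cells (-0.68, adjusted p = 0.171), to Pick1, which binds the PKCα tail, for PMA in HPg cells (-0.31, adjusted p = 0.219) and for the lines with PMA (0.31, adjusted p = 0.207), and to Akap13 without (0.25, adjusted p = 0.496). With the block, PMA was followed by higher Sqstm1 and lower Wwc1 in both lines and by lower Pick1 in HPg cells. Between the lines with the block, Akap12 was lower in R cells in both comparisons, and with PMA Pick1 was higher and Pard3 lower.

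Of 13 tested PKC substrates, Gap43 was higher in R cells and was the only one to pass without the block. This growth-cone protein had 125, 108 and 128 counts in R cells with PMA and 54, 85 and 53 in HPg cells with PMA (log2 fold change 1.22, adjusted p = 0.0375, edgeR). Without PMA it had 113, 164 and 156 counts in R cells and 33, 32 and 38 in HPg cells (2.01, adjusted p = 0.00496). The calls were held in 14 of 26 fits without the block with PMA, and in 23 of 26 without PMA. Marcks, the classical PKC substrate at the membrane, was higher in R cells with the block: it averaged 295 ± 56.7 CPM in R cells and 159 ± 65.9 CPM in HPg cells with PMA (0.96, adjusted p = 0.000563 with the block, 0.163 without; SD, n = 3 each). For PMA 0 of 13 passed, with the lowest p for Add2 in R cells (-1.07, adjusted p = 0.285) and for Gap43 in HPg cells (0.69, adjusted p = 0.208). With the block Add3 was lower after PMA in R cells and Fscn1 in HPg cells, and Marcks without PMA and Add3 in both comparisons were higher in R than in HPg cells.

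Of 12 tested PKD substrates 1 passed, Hspb1, a small heat shock protein, which was higher in R cells with PMA at very low counts. Hspb1 had 60, 28 and 24 counts in R cells with PMA and 0, 3 and 4 in HPg cells with PMA (adjusted p = 0.0378, edgeR), and 50, 46 and 36 counts in untreated R cells and 8, 0 and 4 in untreated HPg cells (adjusted p = 0.0854), and the call with PMA was held in 13 of 25 fits without the block. For PMA the lowest p in both lines belonged to Ssh1, a cofilin phosphatase that PKD inhibits (-0.74, adjusted p = 0.118 in R cells and -0.78, adjusted p = 0.105 in HPg cells); with the block it was lower after PMA in both (adjusted p = 0.000594 and 0.000591). Hspb1 without PMA, Kidins220 without PMA and Rin1 with PMA were higher in R cells with the block.

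Between the lines 2 of the 10 immediate-early genes, Egr3 and Fosl1, passed with PMA and 1, Egr3, without. Egr3 averaged 38.4 ± 3.94 CPM in R cells with PMA and 16.7 ± 4.75 CPM in HPg cells with PMA (log2 fold change 1.197, adjusted p = 0.0182), and Fosl1 was 0.63 higher on the log2 scale in R cells with PMA (adjusted p = 0.0081, edgeR). Without PMA Egr3 had 22, 16 and 22 counts in R cells and 4, 8 and 3 in HPg cells (1.93, adjusted p = 0.0428), a call held in 13 of 26 fits without the block. With the block 6 of the 10 genes were higher in R cells with PMA, and without PMA Egr3 was higher and Fosl1 lower (-0.33, adjusted p = 0.0360). The Fosl1 response to PMA was 0.97 larger in R cells, at an adjusted p of 0.270 (edgeR). The lists were described by their counts, and no list was tested as a whole. For R against HPg cells the list medians of the log2 fold change ran from -0.11 (diacylglycerol kinases) to 0.66 (other C1-domain receptors) with PMA, where that of immediate-early genes was 0.64, and from -0.31 (diacylglycerol kinases) to 0.54 (other C1-domain receptors) without, beside 0.01 for all genes. For PMA the medians of the 8 lists other than immediate-early genes ran from -0.36 to 0.07 in R cells and from -0.27 to 0.05 in HPg cells, beside -0.02 for all genes.

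For the difference of the PMA responses, R minus HPg, 0 genes of the 9 lists passed. Besides Fosl1, the lowest p of each list belonged to Add2 (-1.61), Rictor (-0.42), Pard6b (0.57), Unc13c (-0.61), Pkn2 (-0.23), Dgke (-0.33), Col4a3bp (-0.25) and Plce1 (-0.26), on the log2 scale, and each had an adjusted p of 1.00 (edgeR).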

How the data were processed

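RNA-seq of 12 libraries was used, 3 per group; the series' design text calls them biological triplicates. Per the labels' protocols, ribosomal RNA was depleted and directional paired-end libraries were made. The deposited values are raw counts: whole numbers for each gene that sum to a different total in each library, which shows no scaling by the authors. The submitters' processing notes name cutadapt 1.11, STAR 2.5.0a, featureCounts 1.4.6-p3 and the build mm9, but no annotation or strand setting. Prkca, which shares 30 exon bases with Apoh on the other strand, and Prkce, which shares 472 with a transcript that the table does not list, are uncertain to that extent.

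Symbols, lengths and gene spans came from GENCODE M21 (GRCm38), which gave a symbol to 32620 of 37310 genes, and promoters from RefSeq. Counts were filtered with filterByExpr (minimum count 10, minimum total 15), scaled by TMM and fitted for all 12 libraries and 16630 genes with edgeR 4.0.16 (quasi-likelihood F-test, robust, R 4.3.3), with a coefficient per group, 5 contrasts and Benjamini-Hochberg adjustment over all genes at 0.05. Standard errors and 95% intervals are Wald values. CPM were taken over TMM-scaled library totals and RPKM are CPM per kb of merged exons. The fit was tested on counts simulated for genes that had passed the filter, with known changes placed in R cells with PMA. Only the contrasts of R against HPg cells, with and without PMA, were checked there. DESeq2 1.42.0, other scalings and filters, offsets, and leaving out libraries were alternatives.

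Replicate numbers in the labels pair the libraries: after removal of group means, all 18 same-numbered pairs correlated (r of 0.294 to 0.681), and 36 pairs of different numbers ranged from -0.621 to 0.245. All pairs of libraries within a group differed by more than sampling noise (chi-square per degree of freedom 104 to 689). The members and the 9 gene lists were chosen with earlier results of these data known, and some genes of the lists are not reported here. Genes named from the lists were those called, at most 4 per list and comparison, or else the one with the lowest p. At totals of 111458145 counts or more, counting error is small for all members but Prkch, Prkcz and Prkcb.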

Additional observations from a re-analysis of the deposited data

Results flagged for a closer look

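Prkca went opposite ways with PMA in the 2 lines. Each R library with PMA was below its untreated partner, the R library with that number (132 CPM against 137 CPM, 290 CPM against 317 CPM, and 201 CPM against 205 CPM), and each HPg library with PMA was above its untreated partner (186 against 117, 263 against 259 and 198 against 178 CPM). Such a pattern in all pairs was seen for 2.18% of the 16630 tested genes. The difference of the responses, R minus HPg, was -0.30 on the log2 scale (adjusted p = 1.00, edgeR), and -0.37 with the replicate block (adjusted p = 0.648), so it did not pass the test.

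Prkd1 went opposite ways between the lines with and without PMA, though the library 3 pair with PMA was nearly equal. Each R library was below the HPg library of the same number with PMA (60.3 against 91.5, 80.3 against 85.1, and 72.66 against 72.69 CPM), and each was above it without PMA (75.0 against 62.9, 125 against 94.9 and 87.0 against 74.3 CPM). This was seen for 3.1% of tested genes. The difference was -0.53 on the log2 scale (adjusted p = 1.00, edgeR), and -0.54 with the replicate block (unadjusted p = 0.0122, adjusted p = 0.629), so it did not pass the test either.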

How the results depend on the processing

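Without the replicate block, 0 members were called in each of the 5 comparisons under other scalings and filters, DESeq2, offsets, removal of chromosome medians and of 3 noncoding RNAs. Leaving out libraries, with or without the replicate block, gave 0 to 3 members for the lines without PMA, 0 to 4 for the lines with PMA, 0 to 1 for PMA in HPg cells, 0 to 2 for PMA in R cells and 0 for the difference of responses; without the block, the only such call was Prkd2 for the lines with PMA, without HPg with PMA library 2 or all libraries numbered 2.

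For the lines with PMA the replicate block gave 3 members, 3 with DESeq2 size factors, upper-quartile factors or offsets for GC content, length and gene span, 2 with only the groups compared, offsets for GC content and length or chromosome medians removed, 1 with library totals and 4 by DESeq2. They were not always the same members: with gene span in the offsets Prkci (0.24, adjusted p = 0.0360) took the place of Prkd2, with chromosome medians removed they were Prkce and Prkd1 (-0.44, adjusted p = 0.0260), and DESeq2 added Prkch. For the lines without PMA it gave 1 with upper-quartile factors, either set of offsets or DESeq2, and 3 with only the groups compared (Prkca, Prkd1 and Prkd2); the single member was Prkd2. For PMA in R cells it gave 1 with library totals, upper-quartile factors, either set of offsets, chromosome medians removed or DESeq2, and 2 with only the groups compared (Prkd1 and Prkce); the single member was Prkd1, except Prkca with gene span in the offsets. The replicate block by itself changed no other call of a member, and the cause of these changes was not tested. Alternatives that combine the block with another choice, gene span, and leaving out a replicate number were chosen after seeing the data.

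The counts of all genes called without leaving out libraries were 219 (12 to 775 over the alternatives) for the lines without PMA, 411 (190 to 1174) with PMA, 574 (222 to 1196) for PMA in HPg cells, 739 (519 to 1279) for PMA in R cells and 0 (0 to 1) for the difference; with the block they were 1154 to 3760, 2081 to 3789, 1042 to 3171, 2207 to 4328 and 0 to 1. Library totals moved the median of all genes for PMA in R cells by -0.13 on the log2 scale. Prkca for PMA in HPg cells, 0.22, ranged from -0.0178, without untreated HPg library 1, to 0.546 when single libraries were left out. Of the other 34 member values, 29 changed sign under some alternative. Ranks of the levels were unchanged with library totals for all 10 members, and for 6 with the longest transcript as length. Depth limits Prkcb, Prkcz and Prkch.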
